A study of Mus musculus with 40 samples.

Results

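The 8 genes described here are *Hoxa4*, *Hoxa5*, *Hoxa10*, *Hoxa11* and *Hoxa13* of the HoxA cluster and *Hoxc6*, *Hoxc9* and *Hoxc10* of the HoxC cluster, in the gastrocnemius and the quadriceps of the mouse. They were chosen by symbol from a list of Hox genes drawn up with the signal intensities of these arrays and their differences between the muscles known, so that their levels and muscle differences are a description. How many of them met the call rule between the muscles is printed beside the share of all probe sets that did, but the choice of the genes fixed these counts, and nothing is read from them. Each was found on the array as 1 probe set, which makes 8 of 16475 probe sets. RNA of both muscles of 20 male mice, whose strain the labels write as C56BL/6J, was hybridized to 40 Affymetrix arrays, so that a mouse contributed 1 quadriceps and 1 gastrocnemius array. All mice took a run-in low fat diet for 3 weeks from 9 weeks of age. Thereafter 10 mice stayed on a palm oil based low fat diet (LFD) and 10 received a palm oil based high fat diet (HFD) for 8 weeks, and all were 20 weeks old at dissection, so that the groups are LFD quadriceps, LFD gastrocnemius, HFD quadriceps and HFD gastrocnemius with 10 arrays each. The RNA is that of a whole muscle, in which fewer cells of a type and less RNA per cell cannot be told apart.

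Hox genes encode homeodomain transcription factors that give cells their position along the body axis and the limb axis during development. They lie in 4 clusters, and their order along a cluster follows the order of the body regions in which they act, so that low numbers mark anterior or proximal and high numbers posterior or distal positions. In the limb, group 10 genes pattern the thigh, group 11 genes the lower leg and group 13 genes the foot. The quadriceps is a muscle of the thigh and the gastrocnemius one of the lower leg. Adult muscle cells and connective tissue cells can keep part of the Hox code of their origin.

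The table of RefSeq promoters used here matched 4 of the 8 genes, all of the HoxA cluster, and those of 3 genes are shown because *Hoxa11* and *Hoxa13* had higher signals in the gastrocnemius while *Hoxa5* did not keep 1 direction. Each holds 300 bases around a transcription start, most of them before it, written 5′ to 3′ on the minus strand of assembly GRCm38.p6, and capitals mark the homeodomain core TAAT or its reverse complement ATTA.
*Hoxa5*, chr6:52204538-52204837: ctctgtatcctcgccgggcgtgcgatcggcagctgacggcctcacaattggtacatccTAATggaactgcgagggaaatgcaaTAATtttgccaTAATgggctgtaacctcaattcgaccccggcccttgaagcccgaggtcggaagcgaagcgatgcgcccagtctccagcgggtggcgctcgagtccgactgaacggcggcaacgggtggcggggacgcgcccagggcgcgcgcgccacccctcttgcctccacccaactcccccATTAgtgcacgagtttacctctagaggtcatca
*Hoxa11*, chr6:52245761-52246060: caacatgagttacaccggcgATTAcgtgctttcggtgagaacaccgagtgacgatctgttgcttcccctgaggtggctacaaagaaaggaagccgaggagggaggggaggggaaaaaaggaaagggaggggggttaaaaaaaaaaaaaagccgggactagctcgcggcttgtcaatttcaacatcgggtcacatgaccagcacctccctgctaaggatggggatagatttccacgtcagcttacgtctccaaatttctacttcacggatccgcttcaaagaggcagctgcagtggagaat
*Hoxa13*, chr6:52260831-52261130: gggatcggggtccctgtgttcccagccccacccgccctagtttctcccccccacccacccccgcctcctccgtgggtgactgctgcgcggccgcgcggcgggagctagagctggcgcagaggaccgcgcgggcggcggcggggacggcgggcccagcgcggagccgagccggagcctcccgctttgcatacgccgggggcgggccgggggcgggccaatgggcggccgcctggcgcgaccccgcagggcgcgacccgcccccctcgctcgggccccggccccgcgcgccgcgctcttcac
On both strands, TAAT was found 4 times in the *Hoxa5* promoter, 1 time in that of *Hoxa11* and 0 times in that of *Hoxa13*, and it occurs in 58.0% of 32851 mouse promoters of this length. The GC box GGGCGG, which Sp1 family factors bind, was found 6 times in the *Hoxa13* promoter and in 35.7% of all promoters, and neither *Hoxa5* nor *Hoxa11* held it. The GC content was 81.0% for *Hoxa13*, 61.7% for *Hoxa5* and 51.0% for *Hoxa11*, against a median of 52.7% over all promoters. TATAAA was in none of these 3, and CCAAT occurred 1 time each in *Hoxa5* and *Hoxa13*. The remaining matched gene, *Hoxa10*, is not shown, though its log2 differences between the muscles were also above 0 on both diets. Its 2 starts held TAAT 1 and 3 times, GGGCGG 2 and 0 times and TATAAA 0 and 1 times. Since the 3 promoters were picked by muscle values, nothing is read from the differences between them. A match of letters describes the sequence and does not show that a factor binds there.

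The arrays are given as linear signal intensities, which the authors computed with quantile normalization and GC-RMA, and signals of different probe sets are not set against each other because probes differ in brightness. Array medians lay between 8.8 and 9.4. A mean signal over 20 across the 40 arrays was required for testing, which 6479 probe sets (39.3%) passed. Of the 8 genes, *Hoxa5*, *Hoxa10*, *Hoxc6*, *Hoxc9* and *Hoxc10* passed, with means of 27.1, 43.7, 22.6, 21.8 and 980.8. *Hoxa4*, *Hoxa11* and *Hoxa13* had means of 13.0, 8.8 and 5.7, near the array median, so that the size of their differences depends on the background of the array. These 3 were fitted with all 16475 probe sets. In both fits limma had to give a Benjamini-Hochberg FDR under 0.05 together with more than a 1.3-fold difference for a gene to be called.

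The arrays of mouse 141, on the LFD, stood apart from those of the other 19 mice. On a scale on which 0 is the mean of the other quadriceps arrays of the same diet and 1 the mean of the other gastrocnemius arrays, as the median over the 216 probe sets called between the muscles without it, its quadriceps array lay at 0.55 and its gastrocnemius array at 0.57. Placed in the same way, the other quadriceps arrays lay between -0.18 and 0.31 and the other gastrocnemius arrays between 0.88 and 1.12. The SD of the log2 difference between its muscles was 0.236, and that of the other mice 0.305 to 0.499. The muscle differences of the 8 genes in LFD mice are therefore given with and without mouse 141. The 9 listed genes of muscle fibers had mean signals between 542.3 and 28784. The lowest of these means was that of *Myh7*, the slow myosin gene, whose signal went down to 3.2 in the LFD quadriceps and to 4.9 in the HFD quadriceps.

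*Hoxc6*, a gene of the anterior part of the HoxC cluster that acts in the patterning of the thorax and the forelimb level, was lower in the gastrocnemius. In LFD mice its signal in the quadriceps ranged from 24.0 to 33.1 (median 29.7), with a mean of 29.1 ± 2.53 (SD, n = 10). In the gastrocnemius of the same mice it ranged from 12.8 to 23.3 (median 16.8), with a mean of 16.9 ± 2.96 (SD, n = 10). Every quadriceps array was above every gastrocnemius array, and the highest gastrocnemius value was that of mouse 141. The log2 difference, gastrocnemius minus quadriceps, was -0.80 (standard error 0.09), or a 1.74-fold higher signal in the quadriceps, and it was -0.86 (standard error 0.08) without mouse 141.

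In HFD mice the *Hoxc6* signal ranged from 24.3 to 32.9 (median 29.0) in the quadriceps and from 12.2 to 19.2 (median 15.4) in the gastrocnemius. The groups did not overlap. The log2 difference was -0.93 (standard error 0.08), a 1.90-fold higher signal in the quadriceps. The quadriceps was higher in 10 of 10 mice on either diet, and the mean of the gastrocnemius lay under 20 on both diets. Its mean over all arrays passed the filter only through the quadriceps. Of the 5 genes over 20, *Hoxc6* alone met the call rule between the muscles, in LFD mice, where 2.52% of the 6479 probe sets met it, and in HFD mice, where 3.46% did. Groups that did not overlap were found for 0.261% of all 16475 probe sets in LFD mice and for 0.48% in HFD mice.

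*Hoxc9*, known for setting the thoracic identity of motor neurons, had wide and overlapping signals. In LFD mice it ranged from 18.7 to 26.9 (median 24.1) in the quadriceps and from 15.0 to 34.6 (median 19.4) in the gastrocnemius. The highest gastrocnemius value was again that of mouse 141, and the next highest was 25.0. The log2 difference was -0.17 (standard error 0.11), and -0.24 (standard error 0.09) without mouse 141, with the quadriceps higher in 8 of 10 mice. In HFD mice the signal ranged from 17.4 to 34.8 (median 22.1) in the quadriceps and from 15.7 to 28.3 (median 19.2) in the gastrocnemius, with a log2 difference of -0.21 (standard error 0.12) and the quadriceps higher in 6 of 10 mice. *Hoxc9* was not called on either diet.

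*Hoxc10*, which is expressed in the developing hindlimb and in lumbar motor neurons, had signals far above the filter on all arrays. In LFD mice it ranged from 891.8 to 1195 (median 1048) in the quadriceps and from 843.7 to 1183 (median 1028) in the gastrocnemius. The groups overlapped over nearly their whole range, and the log2 difference was -0.04 (standard error 0.06), and -0.05 (standard error 0.07) without mouse 141. In HFD mice it ranged from 886.8 to 1062 (median 992.4) in the quadriceps and from 805.2 to 939.6 (median 885.0) in the gastrocnemius. There the log2 difference was -0.16 (standard error 0.04), a 1.11-fold higher signal in the quadriceps, which was higher in 8 of 10 mice. It did not meet the call rule, since the fold change was under 1.3. Its FDR was under 0.05 in this fit and over 0.05 with the mouse as a fixed replicate block, in the fit over all probe sets, with all 40 arrays in 1 model, and without any 1 of the mice other than 145 and 150.

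*Hoxa5*, a gene of the cervical and thoracic level that is needed in the developing lung, showed no common direction between the muscles. In LFD mice its signal ranged from 22.1 to 30.8 (median 25.1) in the quadriceps and from 20.5 to 33.4 (median 26.5) in the gastrocnemius, which was higher in 8 of 10 mice. In HFD mice it ranged from 20.7 to 39.4 (median 27.9) in the quadriceps and from 20.5 to 31.1 (median 26.1) in the gastrocnemius, which was higher in 1 of 10 mice. The log2 differences were 0.05 (standard error 0.09) in LFD mice, with or without mouse 141, and -0.13 (standard error 0.09) in HFD mice. The groups overlapped on both diets, and the test of the difference between the diets is given with the interaction.

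*Hoxa10*, a group 10 gene of the thigh level of the limb, was not called on either diet. In LFD mice it ranged from 30.8 to 48.0 (median 43.7) in the quadriceps and from 40.9 to 56.0 (median 49.9) in the gastrocnemius, with a log2 difference of 0.22 (standard error 0.07), or 0.22 (standard error 0.08) without mouse 141, and the gastrocnemius higher in 9 of 10 mice. The lowest quadriceps value, that of mouse 155, lay apart from the other 9, which were between 39.4 and 48.0. In HFD mice it ranged from 28.5 to 49.5 (median 41.7) in the quadriceps and from 34.0 to 53.7 (median 43.2) in the gastrocnemius, with a log2 difference of 0.13 (standard error 0.10) and the gastrocnemius higher in 7 of 10 mice.

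*Hoxa11*, a group 11 gene that patterns the lower leg and the forearm, was listed with low signals in the quadriceps and higher ones in the gastrocnemius. In LFD mice it ranged from 3.9 to 11.2 (median 4.7) in the quadriceps and from 9.5 to 16.7 (median 12.5) in the gastrocnemius. Mouse 141 held both the highest quadriceps and the lowest gastrocnemius value, and the quadriceps arrays of the other 9 mice lay between 3.9 and 5.9. The log2 difference was 1.31 (standard error 0.15), or 1.48 (standard error 0.09) without mouse 141, when the groups no longer overlapped. How many of all probe sets lay apart without this mouse was not counted, so nothing is read from that separation. In HFD mice it ranged from 4.0 to 5.8 (median 5.0) in the quadriceps and from 7.6 to 22.5 (median 12.1) in the gastrocnemius. The groups did not overlap, and the log2 difference was 1.27 (standard error 0.14). The gastrocnemius was higher in 9 of 10 LFD mice, all but mouse 141, and in 10 of 10 HFD mice.

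*Hoxa13*, a group 13 gene of the distal limb, had signals below the array median on nearly all arrays. In LFD mice it ranged from 3.3 to 6.5 (median 4.5) in the quadriceps and from 5.3 to 7.8 (median 6.9) in the gastrocnemius, and the highest quadriceps value was that of mouse 141. The log2 difference was 0.55 (standard error 0.10), and 0.59 (standard error 0.09) without mouse 141, when the groups no longer overlapped. The share of all probe sets without overlap was not counted without this mouse, so nothing is read from that separation. In HFD mice it ranged from 3.8 to 5.9 (median 4.6) in the quadriceps and from 4.7 to 9.7 (median 6.9) in the gastrocnemius, with a log2 difference of 0.49 (standard error 0.11). The gastrocnemius was higher in 10 of 10 mice on either diet.

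*Hoxa4*, a gene of the anterior HoxA cluster that acts in the cervical vertebrae, ranged in LFD mice from 9.0 to 12.3 (median 10.3) in the quadriceps and from 10.7 to 16.9 (median 13.5) in the gastrocnemius. In HFD mice it ranged from 9.4 to 13.2 (median 11.3) in the quadriceps and from 12.0 to 26.3 (median 15.6) in the gastrocnemius. The groups overlapped on both diets, with the gastrocnemius higher in 9 of 10 LFD mice and 10 of 10 HFD mice. The log2 differences were 0.37 (standard error 0.08) in LFD mice, 0.41 (standard error 0.08) without mouse 141, and 0.48 (standard error 0.10) in HFD mice.

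In the fit over all 16475 probe sets, 3 of the 8 genes met the call rule in LFD mice, *Hoxa11* and *Hoxa13* higher and *Hoxc6* lower in the gastrocnemius, where 1.38% of all probe sets met it. In HFD mice 4 met it, the same 3 genes and *Hoxa4*, where 1.87% of all probe sets did. *Hoxa4* lay just under the 1.3-fold threshold in LFD mice and met the rule there when mouse 141, 153 or 159 was left out, with log2 differences of 0.41, 0.39 and 0.43. In HFD mice *Hoxa4* fell under the threshold without mouse 144, with a log2 difference of 0.37, and *Hoxa13* had an FDR just over 0.05 without mouse 146, with a log2 difference of 0.44. The median log2 difference of the 8 genes was 0.14 in LFD mice and -0.0041 in HFD mice, against medians over all probe sets of 0.0084 and -0.0012.

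**Figure D1:**
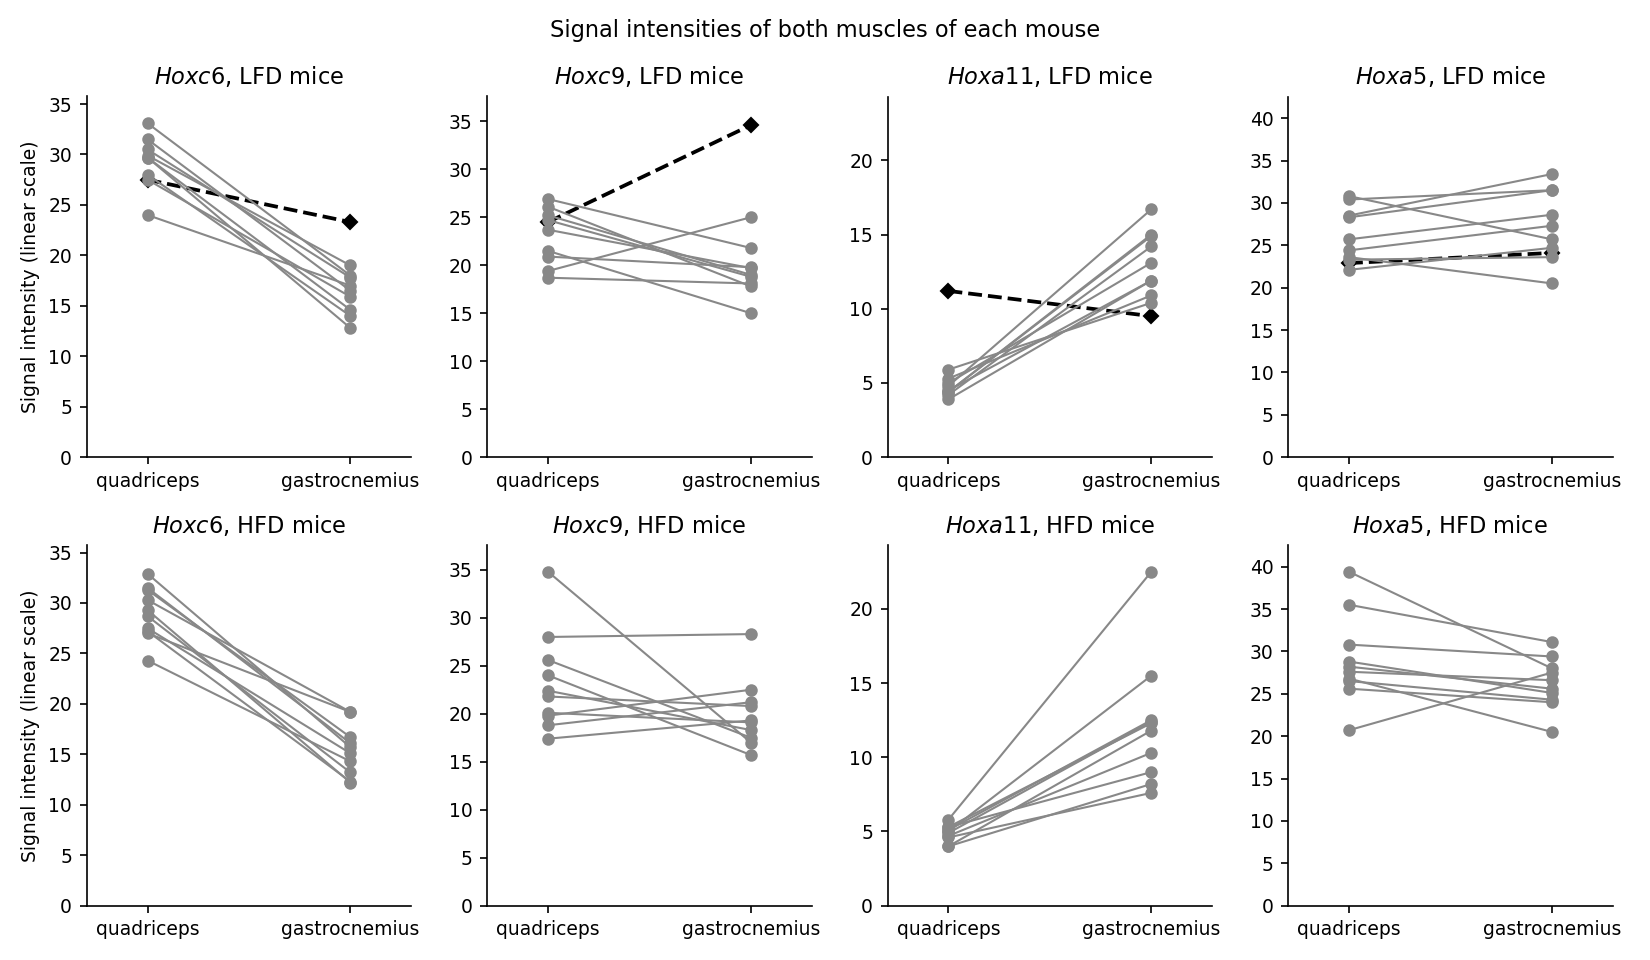
Signal intensity (linear scale, starting at 0) of *Hoxc6*, *Hoxc9*, *Hoxa11* and *Hoxa5* in both muscles, with 1 line for each mouse, LFD mice above and HFD mice below. The dashed black line is mouse 141, in which *Hoxa11* was 11.2 in the quadriceps and 9.5 in the gastrocnemius while every other line of *Hoxa11* runs upward.

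The other genes of the clusters were examined for comparison. *Hoxa6*, *Hoxc8*, *Hoxc11* and *Hoxc12* were not analysed here. The 7 genes compared, *Hoxa2*, *Hoxa3*, *Hoxa7*, *Hoxa9*, *Hoxc4*, *Hoxc5* and *Hoxc13*, had means between 3.7 and 13.9 and none passed the filter. Their log2 differences between the muscles ranged from -0.13 to 0.07 in LFD mice and from -0.28 to 0.04 in HFD mice, and limma called 0 of 7 on either diet, with 0 and 3 at an unadjusted p under 0.05. *Hoxa9*, the neighbor of *Hoxa10* on the anterior side, had log2 differences of -0.07 (standard error 0.09) and -0.28 (standard error 0.09). In the HoxA cluster, the anterior *Hoxa4* and the posterior *Hoxa10*, *Hoxa11* and *Hoxa13* had values above 0 on both diets. In the HoxC cluster *Hoxc6* had the lowest value on both diets, and the posterior *Hoxc10* was below 0 and *Hoxc13* above 0.

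**Figure D2:**
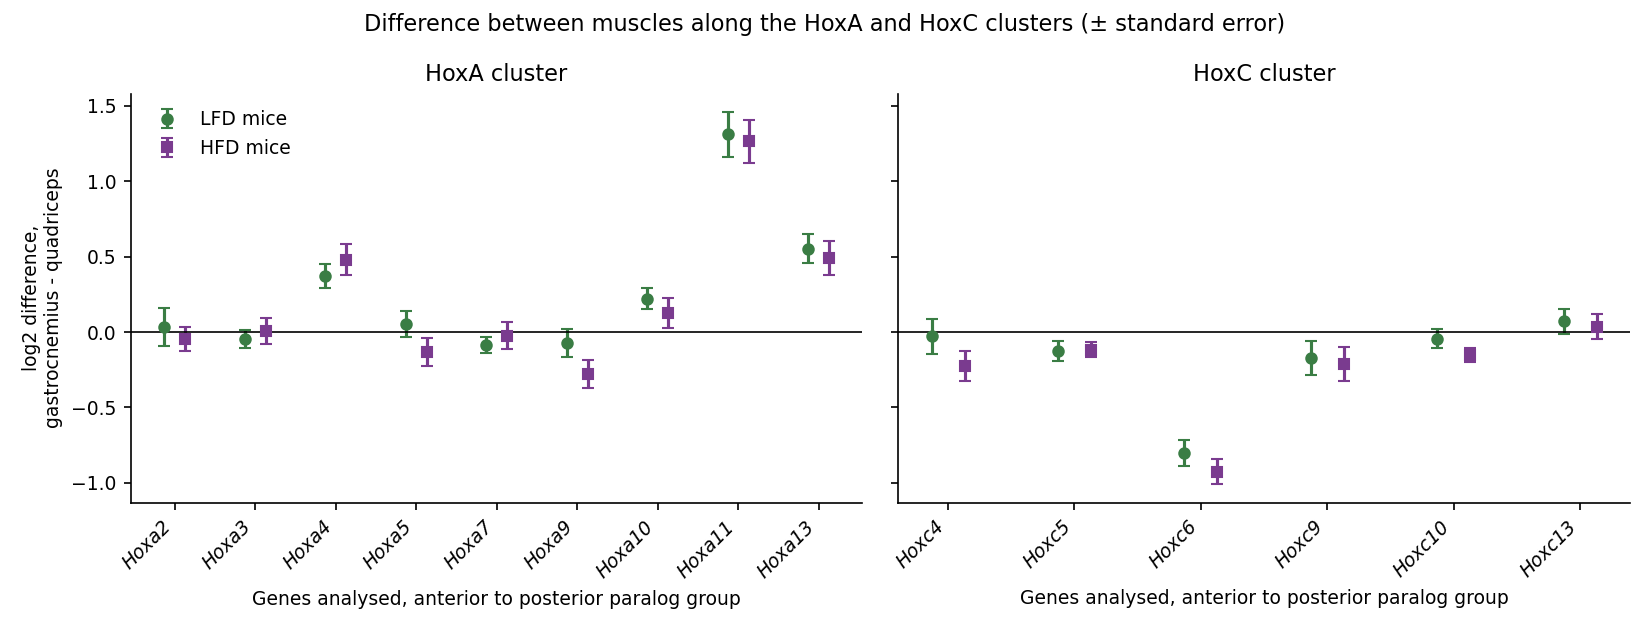
The log2 difference between the muscles (gastrocnemius minus quadriceps, ± standard error, limma over all probe sets) of the HoxA and HoxC genes analysed, ordered by paralog group, in LFD mice (circles) and HFD mice (squares). *Hoxa11* stands highest at 1.31 and 1.27 and *Hoxc6* lowest at -0.80 and -0.93, and most other genes lie near 0.

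None of the 9 measured HoxB genes passed the filter, and limma called 0 of 9 between the muscles on either diet in the fit over all probe sets, with 2 on each diet at an unadjusted p under 0.05. Of the 9 HoxD genes, *Hoxd8* and *Hoxd9* passed the filter and both were higher in the gastrocnemius on both diets. *Hoxd8* had a log2 difference of 2.44 (standard error 0.23) in LFD mice and *Hoxd9* one of 3.20 (standard error 0.27), and these were 2.70 (standard error 0.15) and 3.54 (standard error 0.12) without mouse 141. In the fit over all probe sets *Hoxd10* was called as well on both diets, with means of 4.95 in the quadriceps and 36.2 in the gastrocnemius of LFD mice and 4.13 and 26.0 in HFD mice, and its groups did not overlap. None of the other 6 HoxD genes was called there. For *Hoxd8*, mouse 141 had 346.0 in its quadriceps and 362.3 in its gastrocnemius.

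Hox proteins bind DNA together with cofactors of the Pbx, Meis and Pknox families. Of 9 such genes, *Pknox1* and *Pknox2* passed the filter, with means of 60.7 and 33.4, and limma called 0 of 2 between the muscles on either diet, with 0 at an unadjusted p under 0.05. In the fit over all probe sets *Meis1*, with a mean of 17.7, was called lower in the gastrocnemius of HFD mice. It was not called in LFD mice, with means of 20.8 in the quadriceps and 16.0 in the gastrocnemius and the quadriceps higher in 8 of 10 mice. Of the 9 genes in this fit, 2 had an unadjusted p under 0.05 in LFD mice and 1 in HFD mice. Polycomb proteins hold Hox genes silent and Trithorax proteins keep them active. Of 20 measured genes of these groups 16 passed the filter, among them *Bmi1*, *Eed*, *Ash2l* and *Phc1* with means of 696.5, 537.0, 211.6 and 206.5. Limma called 0 of 16 on either diet, with 3 at an unadjusted p under 0.05 in LFD mice and 1 in HFD mice. By the FDR alone 1 of the 16 passed in LFD mice and 0 in HFD mice. Of 7 factors of limb identity only *Tbx15*, which acts in the development of glycolytic fibers, passed the filter. Its log2 difference was -0.35 in LFD mice (-0.36 without mouse 141) and -0.28 in HFD mice, under the threshold of fold change. Its FDR was under 0.05 in LFD mice and not in HFD mice.

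Some markers of other cell types differed between the muscles. Of all 6479 tested probe sets, 2.52% were called in LFD mice and 3.46% in HFD mice. Both tested Schwann cell markers, *Mbp* and *Pmp22*, were higher in the gastrocnemius on both diets, while 4 of the 6 listed markers were at or under 20. The summed signal of the 6 ranged from 456.1 to 691.1 in the LFD quadriceps, 623.3 to 1306 in the LFD gastrocnemius, 430.0 to 717.7 in the HFD quadriceps and 571.1 to 1370 in the HFD gastrocnemius. Of 6 adipocyte markers, all with log2 differences below 0 on both diets, 3 were called in LFD mice and 1 in HFD mice, with median log2 differences of -0.71 and -0.94 against -0.01 and -0.02 over all tested probe sets, and *Adipoq*, the adiponectin gene, had means of 927.9 and 572.8 in the LFD quadriceps and gastrocnemius. Adipocyte sums ranged from 6558 to 11180 in the LFD quadriceps, 5699 to 7517 in the LFD gastrocnemius, 6992 to 11714 in the HFD quadriceps and 5702 to 11380 in the HFD gastrocnemius.

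Of 6 tested neutrophil markers, 0 were called in LFD mice, with log2 differences from -2.82 to -0.86 and 5 at an unadjusted p under 0.05. In HFD mice 3 were called lower in the gastrocnemius. They passed the filter mainly through quadriceps arrays, since the 8 listed ones together reached at most 48.5 on any gastrocnemius array. Nothing is therefore read from these calls. In the fit over all probe sets 0 of 8 were called in LFD mice and 2, *S100a8* and *S100a9*, in HFD mice. The median of the summed signal of the list was 44.4 in the LFD quadriceps and 44.1 in the LFD gastrocnemius. In HFD mice these medians were 1274 and 43.6. The summed signal of all 8 listed ones, of which 2 did not pass the filter, ranged from 38.4 to 2613 in the LFD quadriceps and from 38.0 to 13447 in the HFD quadriceps, but only from 38.3 to 47.0 and from 40.2 to 48.5 in the gastrocnemius of LFD and HFD mice, where *S100a8* and *S100a9* had means of 6.3 to 7.5. Of 5 tendon markers, with median log2 differences of 0.28 in LFD mice and 0.30 in HFD mice, *Thbs4* was called higher in the gastrocnemius of LFD mice and *Scx* and *Thbs4* in that of HFD mice. The tendon markers did not all go 1 way, with log2 differences from -0.13 to 0.49 in LFD mice and from -0.29 to 0.52 in HFD mice. Of 5 smooth muscle and pericyte markers *Tagln* was called higher on both diets, with log2 differences of the 5 from -0.11 to 0.50 and from 0.04 to 0.51. Of 9 fibroblast markers 0 were called in LFD mice, where log2 differences ranged from -0.377 to 0.146. There 2 had an FDR under 0.05 and 4 an unadjusted p under 0.05. In HFD mice 2, *Col3a1* and *Dpt*, were called lower in the gastrocnemius, with log2 differences of the 9 from -0.434 to 0.129. In HFD mice 3 had an FDR under 0.05 and 4 an unadjusted p under 0.05. Of 4 muscle stem cell and 6 endothelial markers over the filter, limma called 0 on either diet, with 1 stem cell marker of HFD mice at an unadjusted p under 0.05. Among the muscle fiber genes, *Myh2* of fast oxidative fibers and *Myh7* of slow fibers were called higher in the gastrocnemius on both diets, and 0 of the other 7 were. *Myh2* had log2 differences of 0.44 (standard error 0.12) in LFD mice and 0.49 (standard error 0.10) in HFD mice, and *Myh7* had 3.10 (standard error 0.85) and 3.22 (standard error 0.73). Without mouse 141 the counts of called genes in LFD mice stayed the same for each of these lists except the tendon markers, of which 2 were called. The part of these cell and fiber types in the signals of the Hox genes was not tested.

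The diets were compared within each muscle, which was not used to choose the genes. In the quadriceps limma called 0 of the 5 tested genes, with 0 at an unadjusted p under 0.05, where 0.0617% of 6479 probe sets were called. The log2 differences, HFD minus LFD, ranged from -0.12 for *Hoxa10* (95% interval -0.29 to 0.06) to 0.15 for *Hoxa5* (95% interval -0.04 to 0.33), with limma's adjusted p between 0.914 and 0.998. For *Hoxc6* the difference was -0.01 (95% interval -0.18 to 0.17). In the fit over all probe sets 0 of 8 genes were called, against 0.0243% of all probe sets, with 0 at an unadjusted p under 0.05. *Hoxa11* had a difference of -0.08 there, and of 0.05 without mouse 141.

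In the gastrocnemius limma called 0 of the 5 tested genes, with 2, *Hoxa10* and *Hoxc10*, at an unadjusted p under 0.05, where 0.216% of 6479 probe sets were called. *Hoxc10* ranged from 843.7 to 1183 (mean 1020 ± 102, SD, n = 10) in LFD mice and from 805.2 to 939.6 (mean 876.7 ± 40.7, SD, n = 10) in HFD mice. The groups overlapped, with 8 of the 10 LFD arrays above every HFD array and all 10 HFD arrays below the LFD median. The log2 difference was -0.21 (standard error 0.05, 95% interval -0.32 to -0.11), with limma's adjusted p = 0.0379, but at a 1.16-fold higher signal in LFD mice it stayed under the fold change of 1.3 and was not called. The adjusted p was 0.099 in the fit over all probe sets, and when each of the 20 mice was left out it ranged from 0.0107 to 0.115. It lay over 0.05 without mouse 141, 144, 146, 147, 148, 149, 151, 152, 154, 155, 157, 158 or 160, and was 0.0673 without mouse 141, while the log2 difference stayed between -0.24 and -0.19.

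*Hoxa10* in the gastrocnemius ranged from 40.9 to 56.0 in LFD mice and from 34.0 to 53.7 in HFD mice, with a log2 difference of -0.21 (95% interval -0.38 to -0.04) and limma's adjusted p = 0.401. Of the 10 HFD arrays, 9 lay below the LFD median. For *Hoxa5*, *Hoxc6* and *Hoxc9* the differences were -0.04 (95% interval -0.23 to 0.14), -0.13 (95% interval -0.30 to 0.04) and -0.05 (95% interval -0.29 to 0.18), with limma's adjusted p between 0.738 and 0.965. Without mouse 141 the difference of *Hoxc9* was 0.03 and that of *Hoxc6* -0.08. In the fit over all probe sets 0 of 8 genes were called in the gastrocnemius, against 0.0728% of all probe sets, with 3 at an unadjusted p under 0.05. The third was *Hoxa4*, with a difference of 0.23 (95% interval 0.04 to 0.41) and limma's adjusted p = 0.629, in which mouse 144 of the HFD group had the highest signal, and without that mouse the difference was 0.15.

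**Figure D3:**
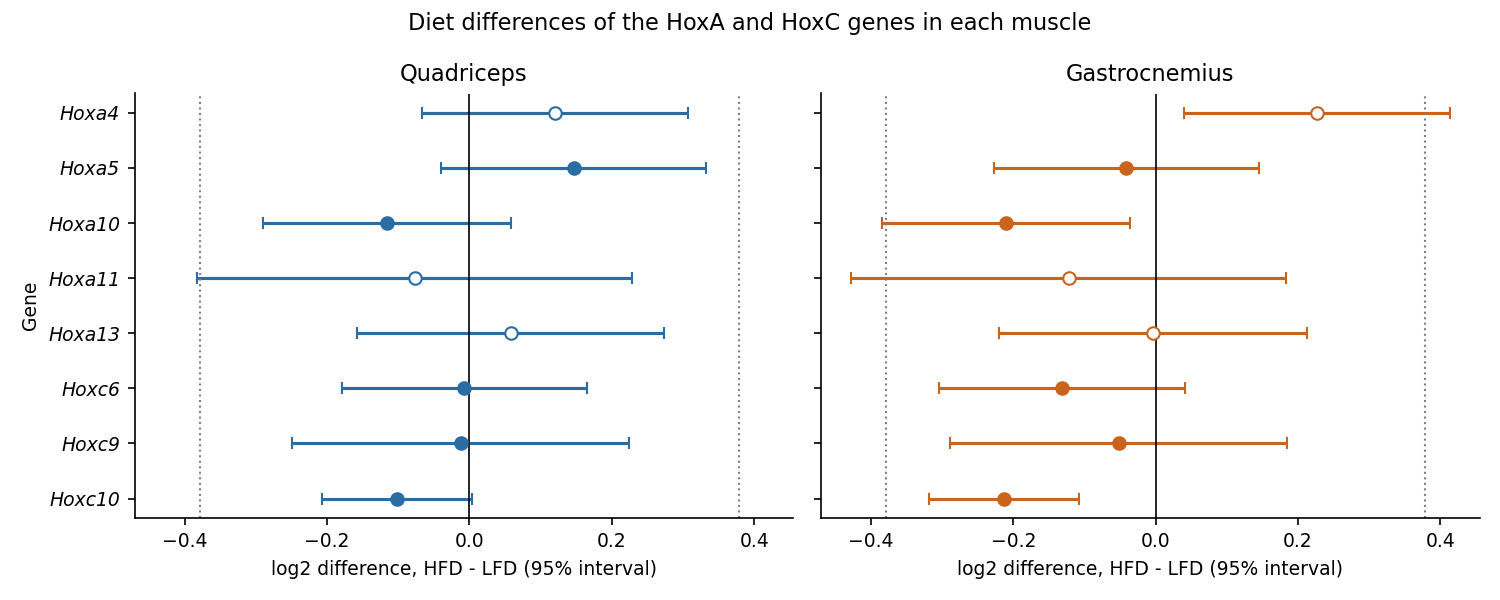
The log2 difference between the diets (HFD minus LFD) of each gene in the quadriceps and the gastrocnemius, with its 95% interval from limma. Filled points passed the signal filter, open points come from the fit over all probe sets, and dotted lines mark a 1.3-fold change. No point lies beyond the dotted lines, and the interval of *Hoxc10* in the gastrocnemius, -0.32 to -0.11, lies below 0.

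The interaction of diet and muscle asks whether the muscle difference is larger on one diet than on the other, and it was called by its FDR alone. Limma called 0 of the 5 tested genes and 0% of the 6479 probe sets, and in the fit over all probe sets 0 of 8 genes and 0% of 16475, with 0 of these genes at an unadjusted p under 0.05 in either fit. All adjusted p-values were 1. For *Hoxa5*, whose signal was higher in the gastrocnemius of 8 of 10 LFD mice and of 1 of 10 HFD mice, the interaction was -0.19 on the log2 scale (95% interval -0.45 to 0.08). For *Hoxc6* it was -0.12 (95% interval -0.37 to 0.12) and for *Hoxc10* -0.11 (95% interval -0.26 to 0.04). For *Hoxa11*, in the fit over all probe sets, it was -0.05 (95% interval -0.48 to 0.39), and -0.22 without mouse 141.

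The muscles of a mouse were compared for the 5 genes over the filter, in 10 relations over the 10 mice of a diet. *Hoxa5* of LFD mice had the closest relation, with Pearson's r = 0.69 (permutation p = 0.0321, adjusted p = 0.321) and Spearman's rho = 0.67 (permutation p = 0.0363, adjusted p = 0.302), and r was 0.86 without the 2 mice farthest from the quadriceps median. In HFD mice *Hoxa5* had r = 0.44 (permutation p = 0.202, adjusted p = 0.697) and rho = 0.62 (permutation p = 0.0604, adjusted p = 0.302), and r was 0.82 without the 2 farthest mice. The other 8 relations had r between -0.30 and 0.38, and none of the 10 passed the correction. Without the 2 farthest mice these 8 had r between -0.26 and 0.35. The r of *Hoxc10* in HFD mice then went from -0.30 to 0.35, so that r depends on few mice.

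Likeness to other genes was described over the 40 arrays after each group was centered on its own mean, with each array a point and the arrays of a mouse sharing that mouse. The genes named were picked as those with the highest r among all tested genes, so that nothing is read from the size of r. *Hoxa5* was most like *Kdr*, the VEGF receptor gene of endothelial cells, with r = 0.69 and rho = 0.75. *Hoxc6* was most like *Acp6*, *Cuedc1* and *Ostm1* (r = 0.60, 0.60 and 0.59, rho = 0.48, 0.56 and 0.45). *Hoxa10* was most like *Dnajb14*, *Zbed4* and *Zc3h18* (r = 0.57, 0.56 and 0.55, rho = 0.51, 0.52 and 0.53). *Hoxc10* was most like *Kcmf1*, *Rnf126* and *Natd1* (r = 0.58, 0.56 and 0.55, rho = 0.56, 0.40 and 0.48). For *Hoxc9* the highest values were those of *Dtymk*, *Ddx56* and *Mrpl42* (r = 0.49, 0.48 and 0.48, rho = 0.50, 0.43 and 0.40). After *Kdr*, *Hoxa5* was most like *2510002D24Rik* and *Sertad4* (r = 0.65 and 0.62, rho = 0.65 and 0.59). Among the 8 genes themselves, the highest r was 0.44 between *Hoxa4* and *Hoxa11* (rho = 0.21), and it was 0.24 without the gastrocnemius array of mouse 144. For *Hoxc6* and *Hoxc9* r was 0.40 and rho 0.27, for *Hoxa10* and *Hoxc10* r was 0.15 and rho 0.30, and for *Hoxa5* and *Hoxa13* r was -0.41 and rho -0.40. Without the 2 arrays farthest from the median of the gene named first, these r were 0.21, 0.22 and -0.32.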

How the data were processed

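The deposited intensities are linear, not log2. To make them, the authors assigned probes to Entrez genes (1 probe set each), normalized by quantiles and used GC-RMA (version not given in the sources). They cover 16475 probe sets after 64 controls were left out. Symbols were taken from RefSeq (GRCm38.p6, names only) for 16229 probe sets and from the platform annotation for 28, and 218 had none. Genes near the array median may carry background, which can change the size of their fold changes, and its direction was not tested. Precision is limited by the number of arrays, 10 in a group. No 2 arrays held identical values.

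Groups came from the sample labels, whose extraction protocol names only the quadriceps. The genes and gene lists were chosen with earlier results of these data known. Named beside the 8 genes are, of each list, up to 4 genes with a mean over 20 by highest mean, the 3 most alike tested genes of each gene over 20, and up to 2 genes of a marker list that moved. Other called list members, *Meis1* and *Hoxa9* were named after their values were seen.

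Intensities were log2 transformed, and limma 3.58.1 (R 4.3.3) was used, with the muscles of each diet in a fit of their own and the diets and the interaction in a model of 4 groups. These main fits held no term for the mouse. The test was tried on simulated data. Alternatives were other filters, an offset of 10, array weights, a second quantile normalization, trended and robust variances, other thresholds, the mouse as a block and the omission of each mouse in turn. The labels give both muscles of a mouse the same number, and they come from the same animal. The correlation of their deviations from the group means had a median of 0.39 in LFD mice and -0.07 in HFD mice. Correlations were tested with 100000 permutations in Python 3.11.15 with numpy 2.4.6 and scipy 1.17.1. Tables and figures were made with pandas 2.3.3 and matplotlib 3.10.9. The 20-week mice, the soleus and the qPCR of the study were not analysed here, and 2 genes of the comparison lists are not reported.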

Additional observations from a re-analysis of the deposited data

Results flagged for a closer look

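In 32 groups of 10 arrays, 4 for each of the 8 genes, 3 arrays lay far from the others of their group by the gap to the nearest array as a share of the range (above Dixon's 95% critical value for groups of 10, on log2 values). Chance alone flags about 1 in 20 groups. *Hoxa11* was at 11.2 in the quadriceps of mouse 141 on the LFD, against 3.9 to 5.9 in the other 9 mice. *Hoxa4* was at 26.3 in the gastrocnemius of mouse 144 on the HFD, against 12.0 to 18.2. *Hoxa10* was at 30.8 in the quadriceps of mouse 155 on the LFD, against 39.4 to 48.0.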

How the results depend on the processing

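The number of genes called was 1 between the muscles of LFD mice, 1 between those of HFD mice and 0 for each diet comparison and the interaction. Without the filter on signal it was 3 in LFD mice and 4 in HFD mice, because *Hoxa4*, *Hoxa11* and *Hoxa13* then enter the fit. By the FDR alone it was 2 in HFD mice and 1 between the diets in the gastrocnemius, in both cases with *Hoxc10*, whose FDR between the muscles of HFD mice was over 0.05 with the mouse as a fixed replicate block. With the mouse as a random or a fixed replicate block the muscle counts stayed at 1 and 1 and the interaction at 0, and the diet counts stayed at 0 with the random block. Leaving out each mouse changed none of the 5 counts. For the 5 genes over the filter, 240 values were taken under alternatives other than leaving out a mouse. Of these, 2 moved by more than 1 SD between replicates, both of *Hoxc6* with an offset of 10 (log2 differences of -0.55 and -0.62). A further 1 was classed as a stronger difference and 237 as the same. Of the 240 values, 3 differences near 0 between the diets in the quadriceps, which were not called, changed sign. *Hoxa4*, *Hoxa11* and *Hoxa13* are not among the 240 values. Apart from leaving out a mouse, no alternative was tried for them. Signals near the array median limit what can be said of the size of the *Hoxa4*, *Hoxa11* and *Hoxa13* differences.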
